A study of Macaca mulatta with 5 samples.

Results

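Day 13 neurons were compared with the neuroepithelial stem cells (NESC) from which they were made. NESC are the earliest progenitors of the neural tube, and here they had been grown from rhesus macaque (Macaca mulatta) embryonic stem cells. The neuron group was 1 library, from passage 36 NESC kept for 13 days in differentiation medium on a coating of 5 µg/ml laminin and 0.05% gelatin. The NESC group was 3 libraries, 1 each at passages 5, 24 and 36, of cells in a medium with 3 µM CHIR99021, 5 µM SB431542, human LIF at 1000 U/ml and bFGF at 10 ng/ml. CHIR99021 inhibits the kinase GSK3 and so turns on WNT signalling, SB431542 inhibits the activin and TGF-beta receptors, bFGF is a fibroblast growth factor, and LIF is a cytokine. Both media were built on Neurobasal with N2, B27, amino acids and Glutmax, and the labels list none of the 4 additions for the differentiation medium. Passage 36 NESC are the matched parent of the neurons. These 4 of the 5 libraries of the series were used, and the radial glial library was left out. A gene was kept when at least 1 of the 4 libraries had 20 reads or more, which left 12116 of 16970 genes. A gene that reached 20 reads only in neurons could hardly fall. Likewise, a gene that reached them only in NESC could hardly rise.

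When a neuroepithelial cell becomes a neuron it leaves the cell cycle for good, lets go of the apical junctions that hold it in the neural tube wall, and grows an axon that must be steered, supplied by motor proteins and tied to its partners by adhesion molecules. It also exchanges regulators that many cell types share for neuronal paralogues, such as splicing repressors, chromatin remodelling subunits and metabolic enzymes. Progenitors make ribosomes, nucleotides and membrane for division, and they draw much of their energy from glycolysis. Neurons rely more on acidified vesicles, degradation by autophagy and long-lived proteins. Growth factors in the medium hold progenitors in division, and their withdrawal lets the cells differentiate.

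Values are FPKM, fragment counts scaled to transcript length and to library size, as deposited. Wherever NESC have 3 values, these belong to passages 5, 24 and 36 in that order. A gene "rose" or "fell" when limma's moderated test of neurons against NESC on log2(FPKM + 1) gave a Benjamini-Hochberg adjusted p under 0.05 over all genes tested, two-sided. Fold changes are given as log2 on the log2(FPKM + 1) scale with limma's standard error after ±, and that scale understates changes of low genes. The neurons had no replicate, so the spread behind every p-value is that between the 3 NESC passages, and the neuron library was assumed to vary in the same way. The labels do not say whether the libraries came from separate cultures. In bulk RNA, fewer cells of a type and less RNA per cell cannot be told apart. Reads came to 5403437 in neurons and 6808232, 5620416 and 7899991 in NESC. Of 15 neuronal label genes that could be tested, 12 rose and none fell (10 rose without passage 24 NESC). Among those that rose was SNAP25 of the vesicle fusion machinery with 281 FPKM in neurons, against 16.8, 5.05 and 2.64 FPKM in NESC. The other 3 did not pass. Neurons lay above every NESC library in 13 of the 15, and the rest, which are neurofilament genes, lay within the NESC range. A 0 beside at least 300 reads in another library can be a failed estimate, which touches BCL11A, CELF4, ELAVL4, BCAN, HOXB8 and HOXB9 here, so such values are written as listed. The nuclear marker RBFOX3 had under 20 reads in all libraries and was listed at 0 in neurons.

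The change was broad. Of the 12116 genes, 2359 rose in neurons (19.5%) and 2503 fell (20.7%), and 993 rose and 707 fell at least 4-fold. The median gene had a log2 fold change of −0.02. Neurons lay above every NESC library in 40.9% of the 12116 genes and below every one in 42.5%. Lying outside the NESC range was thus usual among all genes. The 19.5% and 20.7% are the shares beside which the list counts below should be read. By edgeR on recovered reads, 2165 of the genes that rose and 2125 of those that fell passed in the same direction. The passage 24 NESC library carried many of the calls. Without it 1001 genes rose and 1107 fell, so counts without passage 24 NESC stand beside the counts of the gene lists below. Each of the 4862 called genes kept its direction when any 1 NESC library was left out. That was nearly fixed in advance, since the full fit picked these genes and every refit used the same neuron library. Against passage 36 NESC alone, which allows no test, 2491 genes were at least 2-fold higher and 2608 at least 2-fold lower in neurons.

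Coordinates are as deposited, on a genome build that neither labels nor headers name. Among the 12 genes with the highest log2 fold changes were 3 RNA or chromatin regulators. CELF5 (ENSMMUG00000015513, chromosome 19, 3133305 to 3154432), an RNA-binding protein of nervous tissue, had 109 FPKM in neurons, against 1.04, 0 and 0 FPKM in NESC. Its relative CELF4 (ENSMMUG00000006866, chromosome 18, 30178261 to 30482079) had 84.7 FPKM in neurons and 0.812 FPKM in passage 5 NESC, and was listed at 0 in passages 24 and 36. BCL11A (ENSMMUG00000011303, chromosome 13, 60603700 to 60704828), a zinc finger repressor, had 71.5 FPKM and 385 reads in neurons and was listed at 0 in all 3 NESC libraries. All 3 had their highest listed value in neurons. STMN2 (ENSMMUG00000000507, chromosome 8, 82067575 to 82097117), a tubulin-binding protein of growth cones, had 1916 FPKM in neurons, against 159, 19.9 and 6.10 FPKM in NESC (log2 fold change 6.06 ± 1.71, limma adjusted p = 0.0461). Passage 5 NESC held far more STMN2 than the later passages, and the same order was seen for STMN4, GNAO1 and L1CAM below. At the other end, ANXA2 (ENSMMUG00000012000, chromosome 7, 38755593 to 38806169), a calcium-dependent membrane-binding protein, had 1.17 FPKM (8 reads) in neurons, against 90.8, 201 and 179 FPKM in NESC (log2 fold change −6.11 ± 0.49, limma adjusted p = 0.00443). The glucose transporter SLC2A1 (ENSMMUG00000000373, chromosome 1, 45822357 to 45855519) had 24.3 FPKM in neurons, against 694, 698 and 629 FPKM in NESC (log2 fold change −4.74 ± 0.17, limma adjusted p = 0.00443). Neither of these overlapped between groups, and both lay several-fold below the lowest NESC library. MTO1, a mitochondrial tRNA enzyme also among the 12 lowest, is uncertain: its ratio of FPKM to reads differed between libraries, and edgeR gave it an adjusted p of 0.0978.

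**Figure D1:**
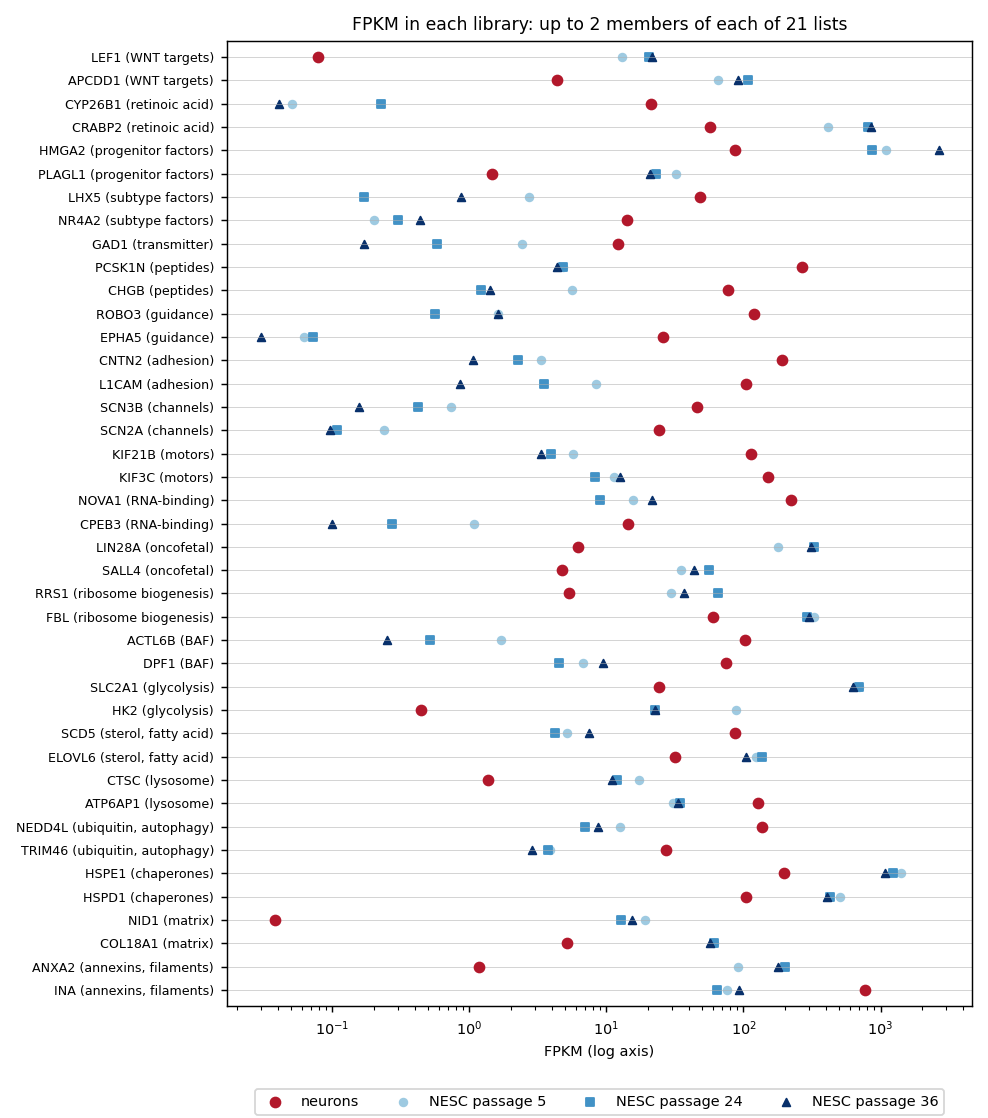
FPKM on a log axis in the neuron library (red circles) and in NESC at passage 5, 24 and 36 (blue markers) for up to 2 members of each of 21 gene lists, those past the test with the largest log2 fold changes, at least 100 reads in 1 library, a value above 0 in all libraries and no doubt about their locus or scaling. In every row the red point lies outside the range of the 3 blue ones, as for ACTL6B at 103 FPKM in neurons or SLC2A1 at 24.3 FPKM in neurons. The rows were chosen by the test. Of all genes tested, 40.9% lay above and 42.5% below every NESC library in neurons.

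The medium of NESC held a GSK3 inhibitor, an FGF, LIF and a TGF-beta receptor inhibitor, and the target genes of these routes were read first. WNT ligands act through beta-catenin and LEF/TCF factors, which switch on feedback genes. Of 12 tested targets, 7 fell and none rose (4 fell without passage 24 NESC), with a median log2 fold change of −1.75. The transcription factor LEF1 itself had 0.0788 FPKM (1 read) in neurons, against 13.03, 20.4 and 21.3 FPKM in NESC (limma adjusted p = 0.00502). APCDD1, a membrane inhibitor of WNT, had 4.34 FPKM in neurons, against 64.8, 107 and 90.9 FPKM in NESC (log2 fold change −4.02 ± 0.32, limma adjusted p = 0.00443). LGR5, a receptor that strengthens WNT signalling, had 1.78 FPKM in neurons, against 53.6, 54.2 and 16.2 FPKM in NESC (log2 fold change −3.75 ± 0.76, limma adjusted p = 0.0200). The cell cycle regulator CCND1 had 37.6 FPKM in neurons, against 161, 361 and 204 FPKM in NESC (log2 fold change −2.57 ± 0.47, limma adjusted p = 0.0158). Neurons lay below the whole NESC range in these 4 genes, whereas AXIN2, the classical feedback gene, lay below it without passing the test, at 11.8 FPKM in neurons, against 38.9, 27.8 and 85.1 FPKM in NESC (limma adjusted p = 0.0733).

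FGF receptors signal through ERK to ETV factors and to the phosphatases that curb ERK. Of 16 tested ERK targets 4 fell and none rose (2 fell without passage 24 NESC, 9 without passage 5 NESC). The 25.0% that fell is near the 20.7% of all genes tested. In neurons 11 of the 16 lay below every NESC library and 2 lay above every one. ETV4 had 1.02 FPKM (9 reads) in neurons, against 26.9, 44.2 and 12.7 FPKM in NESC (log2 fold change −3.68 ± 0.69, limma adjusted p = 0.0169). ETV5 had 0.691 FPKM (4 reads) in neurons, against 6.98, 10.6 and 10.9 FPKM in NESC, and FOSL1, an AP-1 subunit, was listed at 0 in neurons against 2.94, 11.6 and 19.5 FPKM in NESC. The immediate early factor EGR1 had 7.89 FPKM in neurons, against 35.2, 215 and 253 FPKM in NESC and did not pass (limma adjusted p = 0.0571), and passage 5 NESC stood well below the other passages. Among 9 genes of the LIF and STAT3 route, the feedback inhibitor SOCS3 fell, with 4.14 FPKM (7 reads) in neurons, against 11.9, 15.1 and 25.1 FPKM in NESC (log2 fold change −1.77 ± 0.47, limma adjusted p = 0.0388, edgeR adjusted p = 0.0894). The kinase JAK1 rose, with 66.7 FPKM in neurons, against 28.6, 31.4 and 30.1 FPKM in NESC (log2 fold change 1.13 ± 0.19, limma adjusted p = 0.0123). Without passage 24 NESC neither passed. The remaining 7 did not pass.

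Activin and TGF-beta bind type II receptors, which recruit type I receptors and SMADs. Of 16 tested members 6 rose and 5 fell (3 and 2 without passage 24 NESC), and the receptors went different ways. The activin receptor ACVR2A had 77.4 FPKM in neurons, against 14.02, 12.7 and 12.9 FPKM in NESC (log2 fold change 2.47 ± 0.22, limma adjusted p = 0.00473). The TGF-beta receptor TGFBR2 had 0.255 FPKM (6 reads) in neurons, against 3.79, 18.4 and 16.5 FPKM in NESC (log2 fold change −3.23 ± 0.89, limma adjusted p = 0.0430). The ligand TGFB2 had 6.92 FPKM in neurons, against 56.1, 58.4 and 39.1 FPKM in NESC (log2 fold change −2.70 ± 0.30, limma adjusted p = 0.00592). SKIL, a SMAD repressor that the pathway induces, had 34.9 FPKM in neurons, against 4.75, 5.79 and 10.9 FPKM in NESC (log2 fold change 2.21 ± 0.49, limma adjusted p = 0.0251). PMEPA1, another induced inhibitor, had 4.74 FPKM in neurons, against 0.217, 0 and 0 FPKM in NESC (35 reads in neurons, 2 in all NESC). Neurons were thus above every NESC library in 1 receptor and 2 induced inhibitors, and below every NESC library in the other receptor and the ligand.

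In the retinoic acid pathway 2 of 9 tested genes rose and 3 fell (1 and 3 without passage 24 NESC). That is 22.2% and 33.3%, beside 19.5% and 20.7% of all genes tested. The cytoplasmic carrier CRABP2 had 56.6 FPKM in neurons, against 413, 809 and 853 FPKM in NESC (log2 fold change −3.52 ± 0.46, limma adjusted p = 0.00770). The retinol importer STRA6 was listed at 0 in neurons against 6.78, 5.05 and 4.30 FPKM in NESC. CYP26B1, which breaks retinoic acid down, had 21.1 FPKM in neurons, against 0.0504, 0.225 and 0.0407 FPKM in NESC (log2 fold change 4.32 ± 0.30, limma adjusted p = 0.00443). The other carrier, CRABP1, had 1756 FPKM in neurons, against 748, 709.6 and 209 FPKM in NESC and did not pass (limma adjusted p = 0.123), and its deposited locus is shared with another gene. Among 9 BMP genes 3 rose and 3 fell (1 and 1 without passage 24 NESC). ID2, an inhibitor of basic helix-loop-helix factors, rose with 201 FPKM in neurons, against 56.5, 29.9 and 27.1 FPKM in NESC (log2 fold change 2.45 ± 0.45, limma adjusted p = 0.0160). ID3, of the same family, fell with 2.48 FPKM (7 reads) in neurons, against 22.7, 72.04 and 25.7 FPKM in NESC (log2 fold change −3.37 ± 0.70, limma adjusted p = 0.0218). The receptor BMPR2, on a shared locus, had 35.8 FPKM in neurons, against 6.37, 8.30 and 5.16 FPKM in NESC, and BMPR1B had 3.95 FPKM in neurons, against 15.6, 15.1 and 26.3 FPKM in NESC, so that ID factors and receptors each lay on both sides of the NESC range.

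Few Notch genes passed. Of 16 tested members, HES6, an antagonist of HES1, rose and NOTCH2 fell, and without passage 24 NESC none rose and 1 fell. NOTCH2 had 3.98 FPKM in neurons, against 16.03, 18.4 and 21.7 FPKM in NESC (log2 fold change −1.97 ± 0.29, limma adjusted p = 0.00995). HES6 had 413 FPKM in neurons, against 120.3, 155 and 172 FPKM in NESC, with 57 reads in neurons and a ratio of FPKM to reads that differed between libraries, and by edgeR it did not pass (adjusted p = 0.138). In the Hedgehog pathway 2 of 9 tested members fell (1 without passage 24 NESC), the transducer SMO with 18.8 FPKM in neurons, against 51.6, 58.1 and 63.2 FPKM in NESC (log2 fold change −1.57 ± 0.20, limma adjusted p = 0.00749) and the transcription factor GLI3 with 5.09 FPKM in neurons, against 17.9, 21.1 and 32.95 FPKM in NESC (log2 fold change −1.99 ± 0.40, limma adjusted p = 0.0199). The 22.2% of Hedgehog members that fell is near the 20.7% of all genes tested. Of 13 YAP and SRF targets, genes that respond to cell tension, 7 fell and 1 rose (3 and 1 without passage 24 NESC). AJUBA, a junction scaffold, had 6.37 FPKM in neurons, against 41.6, 44.4 and 46.2 FPKM in NESC (log2 fold change −2.61 ± 0.20, limma adjusted p = 0.00443). VCL, which ties integrins to actin, had 16.4 FPKM in neurons, against 69.9, 101 and 80.4 FPKM in NESC (log2 fold change −2.27 ± 0.26, limma adjusted p = 0.00608). The exception was AMOTL2, an angiomotin that binds YAP, with 96.8 FPKM in neurons, against 30.2, 20.05 and 37.3 FPKM in NESC (log2 fold change 1.74 ± 0.37, limma adjusted p = 0.0233). In the IGF system, the insulin receptor INSR rose with 21.8 FPKM in neurons, against 5.67, 4.40 and 7.48 FPKM in NESC and the binding protein IGFBP4 fell with 7.27 FPKM in neurons, against 34.3, 35.6 and 19.7 FPKM in NESC. IGF genes numbered 6, of which 1 rose and 2 fell. Without passage 24 NESC no IGF gene passed.

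**Figure D2:**
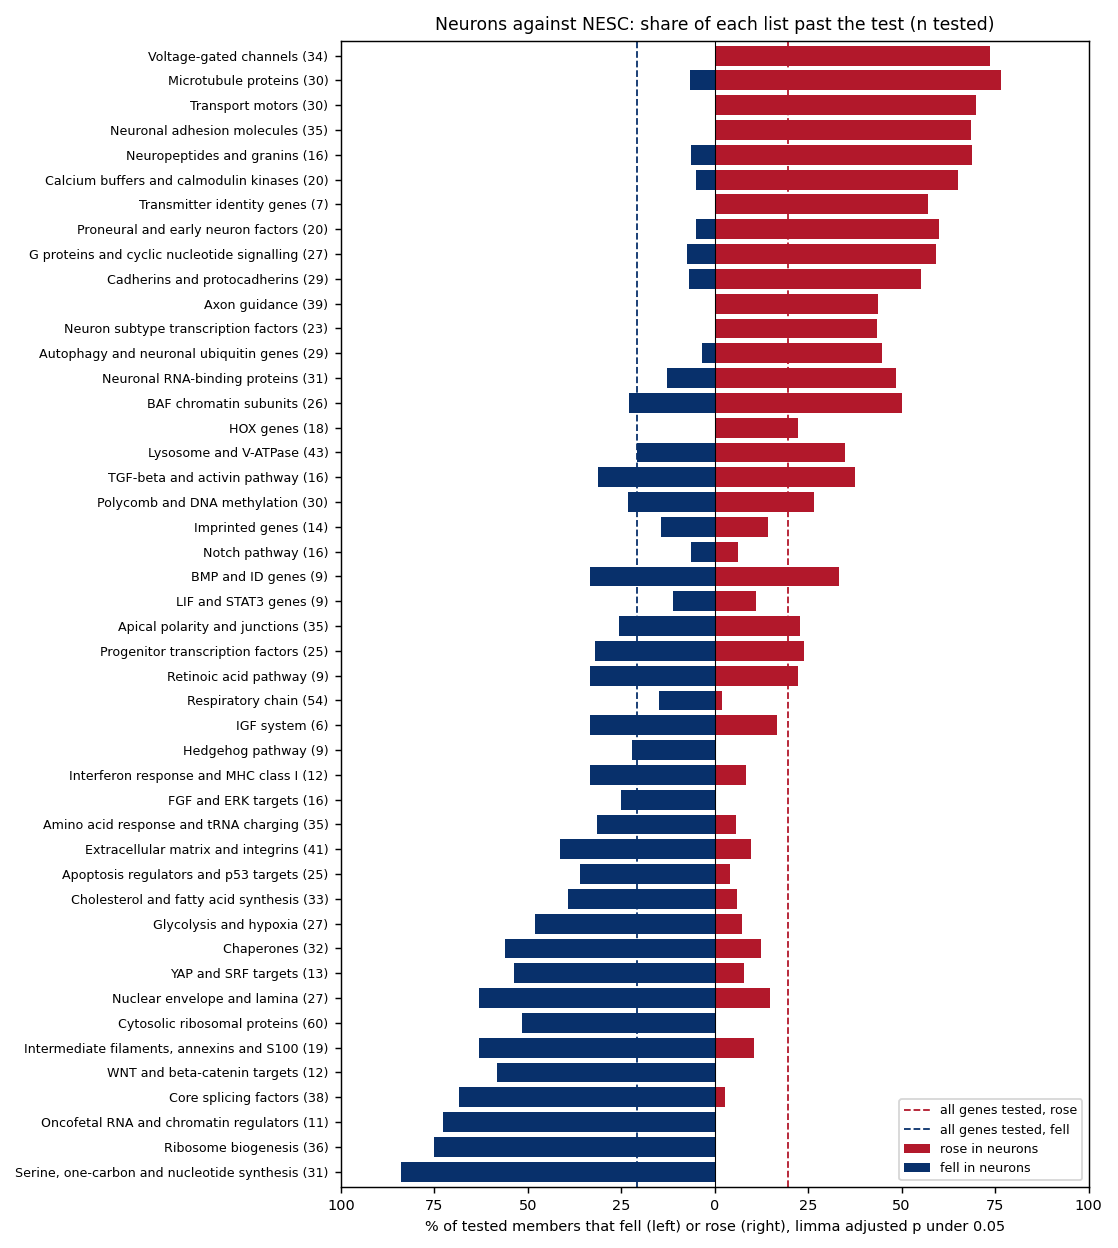
For 46 gene lists with at least 5 tested members (number tested in brackets), the share of members that rose in neurons (red, to the right) and fell in neurons (blue, to the left), in percent of the members tested. The dashed lines mark all genes tested, 19.5% for rose and 20.7% for fell. Lists of the axon, membrane and excitability lie at the top and lists of RNA processing, ribosome making and biosynthesis at the bottom.

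Of 25 transcription factors known from neural progenitors, 6 rose and 8 fell (4 and 4 without passage 24 NESC). That is 24.0% and 32.0%, beside 19.5% and 20.7% of all genes tested. The embryonic zinc finger factors SALL4 and PLAGL1 fell. SALL4 had 4.72 FPKM in neurons, against 34.7, 55.8 and 43.2 FPKM in NESC (log2 fold change −2.97 ± 0.32, limma adjusted p = 0.00567). PLAGL1 had 1.47 FPKM in neurons, against 32.4, 23.1 and 20.8 FPKM in NESC (log2 fold change −3.40 ± 0.34, limma adjusted p = 0.00536). MEIS2 and NR2F1, which many young neurons also use, rose. MEIS2 had 477 FPKM in neurons, against 50.5, 66.5 and 71.5 FPKM in NESC (log2 fold change 2.92 ± 0.25, limma adjusted p = 0.00458). The orphan nuclear receptor NR2F1 had 341 FPKM in neurons, against 29.3, 73.1 and 48.1 FPKM in NESC (log2 fold change 2.83 ± 0.51, limma adjusted p = 0.0151). SOX9, a factor of radial glia and of gliogenesis, also rose, with 31.2 FPKM in neurons, against 4.85, 4.82 and 2.19 FPKM in NESC (log2 fold change 2.76 ± 0.47, limma adjusted p = 0.0133). The pan-neural factor SOX2 fell by a small step, with 105 FPKM in neurons, against 153, 201 and 201 FPKM in NESC (log2 fold change −0.80 ± 0.23, limma adjusted p = 0.0461), and did not pass by edgeR (adjusted p = 0.0932).

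Proneural and early neuronal factors start and then stabilise the neuronal fate. Here 12 of 20 rose and 1 fell (7 and 0 without passage 24 NESC). SCRT2, a repressor of newly born neurons, had 99.9 FPKM in neurons, against 0.556, 2.17 and 0.399 FPKM in NESC (log2 fold change 5.73 ± 0.56, limma adjusted p = 0.00514). MYT1, a zinc finger factor of neurogenesis, had 58.8 FPKM in neurons, against 2.98, 0.612 and 0.110 FPKM in NESC (log2 fold change 4.96 ± 0.76, limma adjusted p = 0.0107). The helix-loop-helix factor EBF3 had 67.4 FPKM in neurons, against 9.05, 2.85 and 0.853 FPKM in NESC (log2 fold change 4.04 ± 0.95, limma adjusted p = 0.0297). Passage 5 NESC had the highest NESC value of MYT1 and EBF3, yet no NESC library reached the neurons. NHLH2 had 62.3 FPKM in neurons, against 39.2, 3.11 and 1.39 FPKM in NESC and did not pass (limma adjusted p = 0.187), and passage 5 NESC stood close to the neurons. ZEB2, on a shared locus, was the factor that fell, with 18.4 FPKM in neurons, against 34.3, 43.8 and 38.3 FPKM in NESC (log2 fold change −1.03 ± 0.23, limma adjusted p = 0.0249).

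Of 23 factors that divide neurons into types, 10 rose and none fell (8 rose without passage 24 NESC). The list held 64 factors, and the rest were absent or under 20 reads in every library. Members near 0 in NESC, such as PAX2, were kept through the neuron library alone. The filter thus bears on the count that fell. PAX2, a mark of spinal and hindbrain inhibitory interneurons, had 47.9 FPKM in neurons, against 0.372, 0 and 0.148 FPKM in NESC (3 reads in all NESC, limma adjusted p = 0.00443). The LIM factors LHX5 and LHX1, which act with PAX2 in that lineage in mice, both rose. LHX5 had 48.4 FPKM in neurons, against 2.74, 0.169 and 0.874 FPKM in NESC (log2 fold change 4.62 ± 0.69, limma adjusted p = 0.0102). LHX1 had 22.03 FPKM in neurons, against 2.62, 0.672 and 0 FPKM in NESC (log2 fold change 3.66 ± 0.75, limma adjusted p = 0.0212). NR4A2 of the same list also rose, with 14.1 FPKM in neurons, against 0.201, 0.302 and 0.434 FPKM in NESC. The factors described are only some of the 10 that rose, and which neuron types were present was not tested. These factors were below 3 FPKM in every NESC library, as were the genes of the transmitter GABA that rose. SLC32A1, the vesicular transporter for GABA and glycine, had 29.3 FPKM in neurons, against 0.127, 0.135 and 0 FPKM in NESC (2 reads in all NESC, limma adjusted p = 0.00443). GAD2 and GAD1, the enzymes that make GABA, both rose. GAD2 had 17.5 FPKM in neurons, against 0.784, 0.0898 and 0 FPKM in NESC (log2 fold change 3.89 ± 0.44, limma adjusted p = 0.00609). GAD1 had 12.2 FPKM in neurons, against 2.41, 0.579 and 0.170 FPKM in NESC (log2 fold change 2.84 ± 0.66, limma adjusted p = 0.0287). In all these genes the neurons exceeded every NESC library. Of the 7 transmitter genes tested, 4 rose and none fell (2 rose without passage 24 NESC), and the vesicular glutamate transporters SLC17A6 and SLC17A7 did not reach 20 reads in a library. The transmitter list held 25 genes, and SLC32A1 too was kept through the neuron library alone.

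HOX genes mark position along the body axis. Of 18 tested, 4 rose and none fell (3 rose without passage 24 NESC), and all that rose belonged to groups 1 to 4. The 22.2% that rose is near the 19.5% of all genes tested. HOXC4 had 95.2 FPKM in neurons, against 11.8, 16.8 and 14.9 FPKM in NESC (log2 fold change 2.65 ± 0.27, limma adjusted p = 0.00551). HOXA2 had 79.4 FPKM in neurons, against 16.2, 21.6 and 13.1 FPKM in NESC (log2 fold change 2.19 ± 0.32, limma adjusted p = 0.00995). HOXD1 had 68.4 FPKM in neurons, against 17.8, 17.7 and 20.6 FPKM in NESC (log2 fold change 1.82 ± 0.22, limma adjusted p = 0.00658). HOXB9, a trunk gene, was listed at 0 in neurons and at 116, 0 and 0 FPKM in NESC. HOXB8 and HOXB7 were also listed at 0 in neurons, against 58.1, 0 and 0.142 and 37.9, 0.168 and 0 FPKM in NESC. These 3 trunk genes were listed above 1 FPKM in passage 5 NESC alone.

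Of 16 tested peptide and granule genes 11 rose and 1 fell (8 and 0 without passage 24 NESC). PCSK1N, an inhibitor of the prohormone convertase, had 267 FPKM in neurons, against 4.82, 4.80 and 4.39 FPKM in NESC (log2 fold change 5.56 ± 0.25, limma adjusted p = 0.00443). CHGB and CHGA, granins that fill dense-core granules, both rose. CHGB had 76.9 FPKM in neurons, against 5.56, 1.22 and 1.42 FPKM in NESC (log2 fold change 4.57 ± 0.71, limma adjusted p = 0.0108). CHGA had 42.7 FPKM in neurons, against 4.54, 0.104 and 0.830 FPKM in NESC (log2 fold change 4.29 ± 0.93, limma adjusted p = 0.0244). PNOC, the nociceptin precursor, had 38.5 FPKM in neurons, against 0, 1.09 and 0 FPKM in NESC (64 reads in neurons, 2 in all NESC). VGF, a secreted granule protein, ran the other way with 20.8 FPKM in neurons, against 58.4, 205 and 124 FPKM in NESC (log2 fold change −2.40 ± 0.69, limma adjusted p = 0.0480). Neurons lay outside the NESC range in each of these, below it in VGF.

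Surface molecules for contact and steering made up the next block. Of 35 neuronal adhesion molecules 24 rose and none fell (16 rose without passage 24 NESC), with a median log2 fold change of 2.52. CNTN2, a contactin of growing axons, had 189.5 FPKM in neurons, against 3.30, 2.27 and 1.06 FPKM in NESC (log2 fold change 5.96 ± 0.49, limma adjusted p = 0.00443). L1CAM, its partner, had 104 FPKM in neurons, against 8.32, 3.50 and 0.854 FPKM in NESC (log2 fold change 4.61 ± 0.91, limma adjusted p = 0.0191). CADM2, a synaptic adhesion protein, had 46.7 FPKM in neurons, against 0.531, 2.10 and 1.89 FPKM in NESC (log2 fold change 4.32 ± 0.51, limma adjusted p = 0.00648). Guidance genes followed with 17 of 39 up and none down (11 up without passage 24 NESC). ROBO3, which lets commissural axons cross the midline, had 119 FPKM in neurons, against 1.62, 0.563 and 1.61 FPKM in NESC (log2 fold change 5.76 ± 0.43, limma adjusted p = 0.00443). The netrin receptor DCC had 29.7 FPKM in neurons, against 5.73, 0.994 and 0.834 FPKM in NESC (log2 fold change 3.40 ± 0.84, limma adjusted p = 0.0328). SLIT2, the ligand of ROBO receptors, had 49.9 FPKM in neurons, against 7.49, 3.46 and 3.23 FPKM in NESC (log2 fold change 3.23 ± 0.50, limma adjusted p = 0.0107). The ephrin receptors EPHA5 and EPHA3 both rose. EPHA5 had 26.00 FPKM in neurons, against 0.0625, 0.0718 and 0.0299 FPKM in NESC (log2 fold change 4.68 ± 0.28, limma adjusted p = 0.00443). EPHA3 had 43.4 FPKM in neurons, against 2.22, 1.02 and 0.998 FPKM in NESC (log2 fold change 4.24 ± 0.41, limma adjusted p = 0.00514). Receptors and ligand alike were above all NESC libraries in neurons.

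Cadherins divided by family member. Of 29 tested 16 rose and 2 fell (9 and 0 without passage 24 NESC). The protocadherins PCDH9 and PCDH10 both rose. PCDH9 had 39.7 FPKM in neurons, against 0.874, 1.42 and 2.57 FPKM in NESC (log2 fold change 4.01 ± 0.46, limma adjusted p = 0.00611). PCDH10 had 39.9 FPKM in neurons, against 0.574, 3.31 and 2.62 FPKM in NESC (log2 fold change 3.81 ± 0.65, limma adjusted p = 0.0132). Of the seven-pass cadherins, CELSR3, needed for axon tracts in mice, had 33.9 FPKM in neurons, against 3.09, 0.847 and 0.753 FPKM in NESC (log2 fold change 3.88 ± 0.59, limma adjusted p = 0.0104). CELSR1, a planar polarity gene of neuroepithelium, had 1.69 FPKM in neurons, against 8.47, 18.9 and 19.3 FPKM in NESC (log2 fold change −2.54 ± 0.54, limma adjusted p = 0.0231). FAT1, a giant cadherin, fell with 16.5 FPKM in neurons, against 33.8, 38.4 and 41.6 FPKM in NESC (log2 fold change −1.15 ± 0.22, limma adjusted p = 0.0172).

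Of 34 voltage-gated channel genes 25 rose and none fell (16 rose without passage 24 NESC), and the median log2 fold change was 2.46. The sodium channel subunits SCN2A, SCN3A and SCN3B led. SCN2A had 24.02 FPKM in neurons, against 0.238, 0.107 and 0.0958 FPKM in NESC (log2 fold change 4.45 ± 0.29, limma adjusted p = 0.00443). SCN3A had 95.5 FPKM in neurons, against 8.00, 5.88 and 6.32 FPKM in NESC (log2 fold change 3.65 ± 0.29, limma adjusted p = 0.00443). SCN3B, an accessory subunit, had 45.6 FPKM in neurons, against 0.730, 0.424 and 0.158 FPKM in NESC (log2 fold change 5.04 ± 0.36, limma adjusted p = 0.00443). SCN3A thus had the highest of these pore-forming levels in neurons and was the only one of the 3 above 1 FPKM in every NESC library. CACNA2D2, a calcium channel accessory subunit, had 25.1 FPKM in neurons, against 0.450, 0.168 and 0.150 FPKM in NESC (log2 fold change 4.39 ± 0.32, limma adjusted p = 0.00443). The potassium channel KCND2 had 13.9 FPKM in neurons, against 0.210, 0.122 and 0 FPKM in NESC (3 reads in all NESC, limma adjusted p = 0.00443).

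G proteins and cyclic nucleotide genes changed subunit by subunit, with 16 of 27 up and 2 down (11 and 2 without passage 24 NESC). GNAO1, the main G protein alpha subunit of brain, had 43.1 FPKM in neurons, against 5.59, 0.584 and 0.106 FPKM in NESC (log2 fold change 4.29 ± 1.06, limma adjusted p = 0.0331). Among gamma subunits GNG2 had 515 FPKM in neurons, against 54.9, 44.00 and 34.6 FPKM in NESC (log2 fold change 3.53 ± 0.29, limma adjusted p = 0.00443). GNG5 had 125 FPKM in neurons, against 434, 443 and 412 FPKM in NESC (log2 fold change −1.78 ± 0.16, limma adjusted p = 0.00482). Among beta subunits GNB5 had 17.5 FPKM in neurons, against 0.884, 0.333 and 0.153 FPKM in NESC (log2 fold change 3.70 ± 0.39, limma adjusted p = 0.00565). GNB4, on a shared locus, had 3.35 FPKM in neurons, against 23.01, 24.6 and 25.1 FPKM in NESC (log2 fold change −2.54 ± 0.24, limma adjusted p = 0.00504). In both subunit families 1 member lay above and 1 below all NESC libraries. Of 20 calcium-handling genes 13 rose and 1 fell (7 and 0 without passage 24 NESC). The calmodulin kinase CAMK2B had 36.9 FPKM in neurons, against 1.31, 0 and 0.134 FPKM in NESC (log2 fold change 4.78 ± 0.56, limma adjusted p = 0.00648). The calcium pump ATP2B4 had 31.2 FPKM in neurons, against 3.45, 2.04 and 1.75 FPKM in NESC (log2 fold change 3.27 ± 0.40, limma adjusted p = 0.00678). CAMKV, a kinase-like protein, fell with 10.7 FPKM in neurons, against 25.5, 20.6 and 32.02 FPKM in NESC (log2 fold change −1.18 ± 0.31, limma adjusted p = 0.0395).

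Most microtubule genes tested rose at the RNA level. Of 30 microtubule genes 23 rose and 2 fell (18 and 1 without passage 24 NESC). STMN4, a stathmin of nervous tissue, had 397 FPKM in neurons, against 27.4, 2.82 and 2.74 FPKM in NESC (log2 fold change 5.75 ± 1.27, limma adjusted p = 0.0254). The plus-end binding protein MAPRE3 had 132 FPKM in neurons, against 6.52, 5.61 and 8.41 FPKM in NESC (log2 fold change 4.10 ± 0.31, limma adjusted p = 0.00443). Its broad paralogue MAPRE1 had 142 FPKM in neurons, against 233, 227 and 235 FPKM in NESC (log2 fold change −0.70 ± 0.15, limma adjusted p = 0.0242). The alpha tubulin TUBA1C had 39.1 FPKM in neurons, against 161, 92.9 and 130.3 FPKM in NESC (log2 fold change −1.65 ± 0.33, limma adjusted p = 0.0200). Tubulin genes are near-identical copies, and neither labels nor headers say how shared reads were counted. Of 30 motor and adaptor genes 21 rose and none fell (13 rose without passage 24 NESC). KIF21B, a kinesin of dendrites and axons, had 113 FPKM in neurons, against 5.68, 3.94 and 3.34 FPKM in NESC (log2 fold change 4.44 ± 0.35, limma adjusted p = 0.00443). KIF3C and its adaptor KIFAP3 both rose. KIF3C had 150.3 FPKM in neurons, against 11.4, 8.31 and 12.5 FPKM in NESC (log2 fold change 3.71 ± 0.30, limma adjusted p = 0.00443). KIFAP3 had 114 FPKM in neurons, against 16.2, 11.6 and 14.9 FPKM in NESC (log2 fold change 2.93 ± 0.27, limma adjusted p = 0.00482). KIF1A, a carrier of synaptic vesicle precursors, had 105 FPKM in neurons, against 20.2, 12.1 and 16.5 FPKM in NESC (log2 fold change 2.64 ± 0.33, limma adjusted p = 0.00708). In these motors the 3 NESC libraries lay within 2-fold of each other, and neurons lay above all of them.

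RNA regulation moved in opposite ways at the level of specific regulators and of the core machinery. Of 31 RNA-binding regulators 15 rose and 4 fell (11 and 1 without passage 24 NESC). NOVA1, a neuronal splicing factor, had 223 FPKM in neurons, against 15.6, 8.93 and 21.4 FPKM in NESC (log2 fold change 3.86 ± 0.48, limma adjusted p = 0.00708). CPEB3, a translational regulator, had 14.3 FPKM in neurons, against 1.08, 0.273 and 0.0992 FPKM in NESC (log2 fold change 3.42 ± 0.46, limma adjusted p = 0.00800). PTBP1, the repressor of neuronal exons in non-neuronal cells, had 56.1 FPKM in neurons, against 269, 335 and 399 FPKM in NESC (log2 fold change −2.53 ± 0.26, limma adjusted p = 0.00546). ELAVL1, the broad member of the Hu family, had 57.1 FPKM in neurons, against 104, 108 and 108 FPKM in NESC (log2 fold change −0.88 ± 0.15, limma adjusted p = 0.0142). The neural partners of PTBP1 and ELAVL1 lay above every NESC library but did not pass. PTBP2 had 162 FPKM in neurons, against 104, 120.4 and 112 FPKM in NESC (limma adjusted p = 0.0646). ELAVL4 had 82.9 FPKM in neurons and was listed at 27.0, 1.94 and 0 FPKM in NESC (limma adjusted p = 0.127). Of 38 core splicing factors, by contrast, 26 fell and 1 rose (14 and 1 without passage 24 NESC). The spliceosomal proteins SNRPB and SNRPD2 both fell. SNRPB had 107 FPKM in neurons, against 510.2, 504 and 662 FPKM in NESC (log2 fold change −2.36 ± 0.23, limma adjusted p = 0.00515). SNRPD2 had 77.8 FPKM in neurons, against 337, 372 and 346 FPKM in NESC (log2 fold change −2.16 ± 0.16, limma adjusted p = 0.00443). The SR protein SRSF2, on a shared locus, had 166 FPKM in neurons, against 565, 673 and 557 FPKM in NESC (log2 fold change −1.84 ± 0.20, limma adjusted p = 0.00583). The member that rose was SNRPN, the imprinted paralogue of SNRPB, with 412 FPKM in neurons, against 115, 126 and 120.3 FPKM in NESC (log2 fold change 1.77 ± 0.16, limma adjusted p = 0.00471).

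Most genes of ribosome making fell. Of 36 ribosome biogenesis factors 27 fell and none rose (14 fell without passage 24 NESC), with a median log2 fold change of −1.41. FBL, the methyltransferase of ribosomal RNA, had 59.6 FPKM in neurons, against 325, 291 and 298 FPKM in NESC (log2 fold change −2.33 ± 0.16, limma adjusted p = 0.00443). The assembly factor RRS1 had 5.30 FPKM in neurons, against 29.5, 65.3 and 36.8 FPKM in NESC (log2 fold change −2.75 ± 0.48, limma adjusted p = 0.0138). RRP9, a nucleolar RNA-protein subunit, had 10.1 FPKM in neurons, against 40.1, 64.1 and 52.9 FPKM in NESC (log2 fold change −2.24 ± 0.31, limma adjusted p = 0.00852). Of 60 cytosolic ribosomal proteins 31 fell and none rose, with a median log2 fold change of −1.06. That count rested on single libraries, with 6 without passage 24 NESC, 15 without passage 5 NESC and 41 without passage 36 NESC. RPL7 had 413 FPKM in neurons, against 1690.2, 2049.6 and 1399 FPKM in NESC (log2 fold change −2.03 ± 0.30, limma adjusted p = 0.00968). RPL8 had 774 FPKM in neurons, against 2850.0, 3133 and 2750.0 FPKM in NESC (log2 fold change −1.91 ± 0.27, limma adjusted p = 0.00925), with passage 36 NESC lowest of the NESC in both. Ribosomal protein genes have many processed copies, which makes single values uncertain.

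Most regulators that mark early embryonic progenitors fell. Of 11 tested 8 fell and none rose, and the count was the same without any 1 NESC library. LIN28A, the RNA-binding protein that blocks the microRNA let-7, had 6.16 FPKM (6 reads) in neurons, against 178, 327 and 309 FPKM in NESC (log2 fold change −5.20 ± 0.39, limma adjusted p = 0.00443). TRIM71, itself a let-7 target, had 4.16 FPKM in neurons, against 22.1, 41.4 and 37.7 FPKM in NESC (log2 fold change −2.70 ± 0.41, limma adjusted p = 0.0106). The mRNA-binding protein IGF2BP1 had 21.95 FPKM in neurons, against 105, 130.1 and 123 FPKM in NESC (log2 fold change −2.39 ± 0.19, limma adjusted p = 0.00443). The chromatin protein HMGA1 had 127 FPKM in neurons, against 794, 943 and 990.2 FPKM in NESC (log2 fold change −2.83 ± 0.22, limma adjusted p = 0.00443). Its relative HMGA2 had 86.97 FPKM (7 reads) in neurons, against 1089.8, 872 and 2650.3 FPKM in NESC in these deposited units, which for neurons stand on only 7 reads.

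Chromatin remodelling genes showed exchange of subunit transcripts. The BAF complex opens chromatin, and in mice its progenitor subunits ACTL6A, PHF10 and SS18 give way to ACTL6B, DPF1 or DPF3, and SS18L1 in neurons. In all 3 cases the neuronal member rose and the progenitor member fell here. ACTL6B (ENSMMUG00000007461, chromosome 3, 47827776 to 47840327) had 103 FPKM in neurons, against 1.70, 0.513 and 0.251 FPKM in NESC (log2 fold change 5.91 ± 0.52, limma adjusted p = 0.00471). Its paralogue ACTL6A (ENSMMUG00000009742, chromosome 2, 107205764 to 107231200) had 30.2 FPKM in neurons, against 133, 129 and 134 FPKM in NESC (log2 fold change −2.09 ± 0.15, limma adjusted p = 0.00443). DPF1 had 74.3 FPKM in neurons, against 6.76, 4.47 and 9.42 FPKM in NESC (log2 fold change 3.30 ± 0.43, limma adjusted p = 0.00749). PHF10 had 20.3 FPKM in neurons, against 63.6, 60.8 and 73.8 FPKM in NESC (log2 fold change −1.65 ± 0.20, limma adjusted p = 0.00666). SS18L1 had 38.2 FPKM in neurons, against 4.01, 6.61 and 4.87 FPKM in NESC (log2 fold change 2.69 ± 0.35, limma adjusted p = 0.00770). SS18 had 24.03 FPKM in neurons, against 51.7, 64.5 and 68.5 FPKM in NESC (log2 fold change −1.31 ± 0.23, limma adjusted p = 0.0142). A further exchange lay in the SMARCD family, where SMARCD3 had 69.6 FPKM in neurons, against 8.81, 10.1 and 8.27 FPKM in NESC (log2 fold change 2.81 ± 0.26, limma adjusted p = 0.00482). SMARCD2 had 8.00 FPKM in neurons, against 36.96, 45.5 and 43.1 FPKM in NESC (log2 fold change −2.25 ± 0.22, limma adjusted p = 0.00526). In each of these genes the 3 NESC libraries lay on 1 side of the neurons. Of all 26 BAF genes 13 rose and 6 fell (6 and 5 without passage 24 NESC).

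Of 30 polycomb and DNA methylation genes 8 rose and 7 fell, or 26.7% and 23.3%, not far from the shares of all genes (1 and 4 without passage 24 NESC). UHRF1, which guides maintenance methylation at replication, had 3.80 FPKM in neurons, against 44.7, 49.1 and 55.1 FPKM in NESC (log2 fold change −3.39 ± 0.23, limma adjusted p = 0.00443). The histone methyltransferase EZH2 had 38.9 FPKM in neurons, against 115, 83.2 and 117 FPKM in NESC (log2 fold change −1.39 ± 0.26, limma adjusted p = 0.0161). Its paralogue EZH1 had 15.9 FPKM in neurons, against 5.92, 4.24 and 3.99 FPKM in NESC (log2 fold change 1.58 ± 0.34, limma adjusted p = 0.0238). TET2, which oxidises methylcytosine, had 30.1 FPKM in neurons, against 6.87, 8.37 and 11.1 FPKM in NESC (log2 fold change 1.69 ± 0.34, limma adjusted p = 0.0205). Of 27 nuclear envelope genes 17 fell and 4 rose (13 and 1 without passage 24 NESC). The pore proteins NUP37 and NUP107 both fell. NUP37 had 7.50 FPKM in neurons, against 46.1, 37.4 and 53.6 FPKM in NESC (log2 fold change −2.44 ± 0.27, limma adjusted p = 0.00592). NUP107 had 20.5 FPKM in neurons, against 82.2, 67.6 and 74.5 FPKM in NESC (log2 fold change −1.81 ± 0.19, limma adjusted p = 0.00565). SUN2, which links the lamina to the cytoskeleton, rose with 67.9 FPKM in neurons, against 11.1, 11.98 and 10.96 FPKM in NESC (log2 fold change 2.48 ± 0.23, limma adjusted p = 0.00487), and so did the lamin gene LMNA, with 49.1 FPKM in neurons, against 26.9, 26.9 and 19.2 FPKM in NESC (log2 fold change 1.00 ± 0.28, limma adjusted p = 0.0443). The pore protein NUP93 also rose, with 129.6 FPKM in neurons, against 67.5, 61.8 and 69.1 FPKM in NESC (log2 fold change 0.96 ± 0.17, limma adjusted p = 0.0141), so pore genes lay on both sides of the NESC range.

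Exchange was also read across a wider list of pairs. It includes the BAF pairs, EZH2 with EZH1 and other pairs named above, so its counts are not separate from those results. Some broad genes serve in more than 1 pair. Among 40 pairs of a neural and a broadly used gene with both members tested, the neural member rose in 34 (29 without passage 24 NESC), fell in 1 and did not pass in 5. The broad member rose in 6, fell in 20 and did not pass in 14. In 15 pairs the neural member rose while the broad one fell. The neural member had the higher FPKM in 27 pairs in neurons and in 5 pairs in passage 36 NESC. The names neural and broad are those of the list, not a result of these data, and the counts describe this list only. In the hexokinase pair HK1 was listed as the neural member, yet it already exceeded HK2 in NESC at passages 24 and 36. HK1 had 128 FPKM in neurons, against 38.7, 29.5 and 33.8 FPKM in NESC (log2 fold change 1.89 ± 0.22, limma adjusted p = 0.00638). HK2 had 0.442 FPKM in neurons, against 87.5, 22.5 and 22.5 FPKM in NESC (log2 fold change −4.66 ± 0.86, limma adjusted p = 0.0160). The actin-binding proteins TAGLN3 and TAGLN2 parted, since TAGLN3 had 244 FPKM in neurons, against 54.1, 28.2 and 39.4 FPKM in NESC (log2 fold change 2.61 ± 0.38, limma adjusted p = 0.00937). TAGLN2 was listed at 0 in neurons, against 4.76, 5.15 and 11.5 FPKM in NESC (limma adjusted p = 0.0166). The vesicle adaptor AP3B2 had 37.3 FPKM in neurons, against 8.14, 3.34 and 8.05 FPKM in NESC (log2 fold change 2.43 ± 0.53, limma adjusted p = 0.0246). AP3B1 had 5.80 FPKM in neurons, against 21.96, 20.01 and 22.4 FPKM in NESC (log2 fold change −1.72 ± 0.24, limma adjusted p = 0.00889). The pair whose neural member fell was lactate dehydrogenase, in which LDHB had 568 FPKM in neurons, against 1322, 1276 and 1218 FPKM in NESC (log2 fold change −1.16 ± 0.21, limma adjusted p = 0.0158). LDHA had 71.3 FPKM in neurons, against 784, 249 and 523 FPKM in NESC (log2 fold change −2.70 ± 0.64, limma adjusted p = 0.0307), so both enzymes fell, and LDHA fell further. In the aldolase pair the broad member ALDOA, on a shared locus, fell. The neural member ALDOC had 5.01 FPKM in neurons, against 73.7, 14.4 and 34.8 FPKM in NESC (limma adjusted p = 0.0767). The ratio of ALDOC to ALDOA was lower in neurons than in every NESC library.

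**Figure D3:**
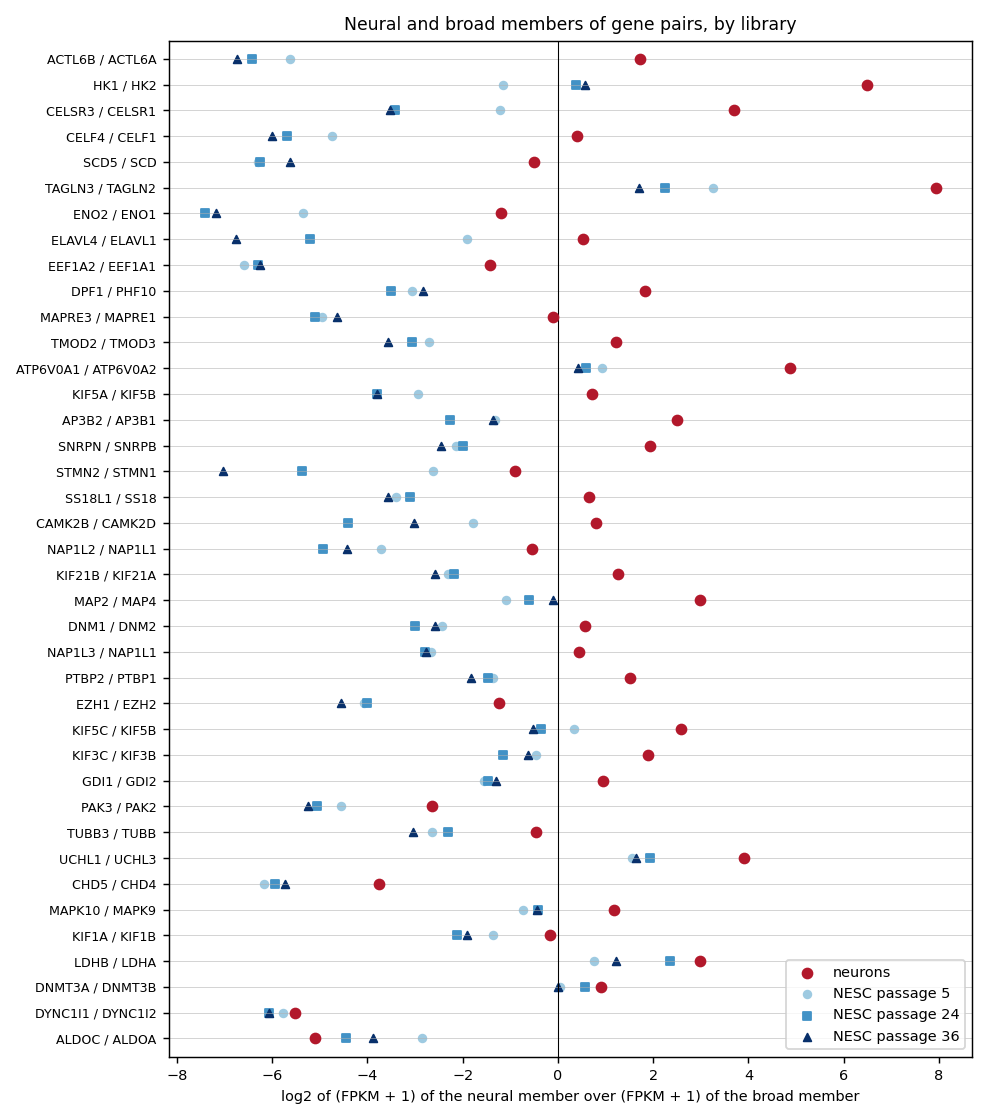
For 39 of the 40 pairs, the log2 ratio of the neural to the broad member, each as FPKM + 1, in neurons (red circles) and in NESC at passages 5, 24 and 36 (blue markers); a value right of 0 means the neural member was the higher. In 38 of those drawn the neuron ratio exceeds that of every NESC library, and ALDOC over ALDOA at the bottom is the exception.

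Glycolysis genes that fell included the glucose and lactate carriers. Of 27 genes of glycolysis and hypoxia 13 fell and 2 rose (10 and 1 without passage 24 NESC). Beside SLC2A1 and HK2 above, SLC16A1, which carries lactate across the membrane, had 16.03 FPKM in neurons, against 117, 142 and 106 FPKM in NESC (log2 fold change −2.83 ± 0.22, limma adjusted p = 0.00443). PDK3, a kinase that inhibits pyruvate dehydrogenase, had 1.60 FPKM (8 reads) in neurons, against 19.1, 12.2 and 12.4 FPKM in NESC (log2 fold change −2.55 ± 0.37, limma adjusted p = 0.00962). PFKM, a phosphofructokinase, rose with HK1, at 115 FPKM in neurons, against 66.3, 52.9 and 45.2 FPKM in NESC (log2 fold change 1.07 ± 0.26, limma adjusted p = 0.0314). Of 54 respiratory chain subunits 8 fell and 1 rose (1 and 0 without passage 24 NESC). NDUFA12 of complex I had 106 FPKM in neurons, against 215, 225 and 228 FPKM in NESC (log2 fold change −1.07 ± 0.15, limma adjusted p = 0.00941). COX8A of complex IV had 772 FPKM in neurons, against 346, 409 and 373 FPKM in NESC (log2 fold change 1.04 ± 0.19, limma adjusted p = 0.0158). The median subunit had a log2 fold change of −0.25, against −1.16 for the glycolysis list and −0.02 for all genes.

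Synthesis for growth held the largest share of calls in 1 direction among the lists described. Of 31 genes of serine, one-carbon and nucleotide synthesis 26 fell and none rose (23 fell without passage 24 NESC). SHMT1, which makes one-carbon units from serine, had 1.32 FPKM in neurons, against 37.4, 20.9 and 23.8 FPKM in NESC (log2 fold change −3.57 ± 0.40, limma adjusted p = 0.00598). GLDC, the glycine cleavage enzyme, had 16.9 FPKM in neurons, against 111, 84.3 and 117 FPKM in NESC (log2 fold change −2.54 ± 0.25, limma adjusted p = 0.00504). In amino acid supply 11 of 35 genes fell and 2 rose (6 and 1 without passage 24 NESC). Asparagine synthetase ASNS had 46.2 FPKM in neurons, against 249.5, 115 and 325 FPKM in NESC (log2 fold change −2.17 ± 0.60, limma adjusted p = 0.0434). The transporter SLC7A11 had 1.70 FPKM in neurons, against 4.36, 13.4 and 55.6 FPKM in NESC and did not pass (limma adjusted p = 0.171), and its NESC values lay far apart.

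Of 33 cholesterol and fatty acid genes 13 fell and 2 rose. Without passage 24 NESC 5 fell, and without passage 5 NESC 6 fell. The fatty acid elongase ELOVL6 had 31.6 FPKM in neurons, against 123, 136 and 104 FPKM in NESC (log2 fold change −1.90 ± 0.21, limma adjusted p = 0.00592). FDPS of the sterol branch, on a shared locus, had 178 FPKM in neurons, against 502, 568 and 526 FPKM in NESC (log2 fold change −1.57 ± 0.18, limma adjusted p = 0.00609). The desaturases parted, since SCD had 122 FPKM in neurons, against 489.9, 395 and 415 FPKM in NESC (log2 fold change −1.81 ± 0.20, limma adjusted p = 0.00590). SCD5, which is strong in brain, had 86.2 FPKM in neurons, against 5.19, 4.21 and 7.40 FPKM in NESC (log2 fold change 3.75 ± 0.37, limma adjusted p = 0.00511). SREBF1, a regulator of lipid synthesis, had 8.71 FPKM in neurons, against 32.5, 18.6 and 39.03 FPKM in NESC (log2 fold change −1.62 ± 0.45, limma adjusted p = 0.0452).

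Lysosomal genes divided by function. The vacuolar ATPase (V-ATPase) pumps protons into lysosomes and synaptic vesicles. Of the 43 genes of the list 15 rose and 9 fell (7 and 4 without passage 24 NESC). Of its 15 V-ATPase subunits and accessory proteins 12 rose and 1 fell, and of its other 28 genes 3 rose and 8 fell, a split made after the values were seen. Without passage 24 NESC 5 of the V-ATPase genes rose and 1 fell, and 2 of the others rose and 3 fell. The accessory subunit ATP6AP1 had 127 FPKM in neurons, against 30.7, 34.1 and 33.1 FPKM in NESC (log2 fold change 1.93 ± 0.18, limma adjusted p = 0.00486). ATP6V0D1, on a shared locus, had 175 FPKM in neurons, against 21.4, 40.3 and 32.2 FPKM in NESC (log2 fold change 2.49 ± 0.37, limma adjusted p = 0.0102). The protease CTSC had 1.36 FPKM (10 reads) in neurons, against 17.4, 11.8 and 11.01 FPKM in NESC (log2 fold change −2.58 ± 0.37, limma adjusted p = 0.00922). The cholesterol carrier NPC2, also on a shared locus, had 35.8 FPKM in neurons, against 162, 185 and 109.5 FPKM in NESC (log2 fold change −2.02 ± 0.33, limma adjusted p = 0.0118). ATP6AP1 and ATP6V0D1 thus lay above every NESC library, and CTSC and NPC2 below. ATP6V0A2, another pump subunit, also lay below every NESC library, with 6.81 FPKM in neurons, against 9.52, 9.75 and 13.6 FPKM in NESC, and did not pass (limma adjusted p = 0.208).

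Autophagy and neuronal ubiquitin genes rose in 13 of 29 and fell in 1 (6 and 1 without passage 24 NESC). Related ubiquitin ligases traded places, as NEDD4L had 135 FPKM in neurons, against 12.5, 6.97 and 8.71 FPKM in NESC (log2 fold change 3.75 ± 0.36, limma adjusted p = 0.00504). NEDD4 had 1.09 FPKM in neurons, against 10.4, 9.02 and 10.6 FPKM in NESC (log2 fold change −2.39 ± 0.30, limma adjusted p = 0.00703). TRIM46, which organises microtubules at the axon's start, had 27.4 FPKM in neurons, against 3.89, 3.75 and 2.86 FPKM in NESC (log2 fold change 2.67 ± 0.32, limma adjusted p = 0.00651). The kinase ULK1, which starts autophagy, had 47.7 FPKM in neurons, against 10.3, 12.8 and 13.99 FPKM in NESC (log2 fold change 1.88 ± 0.28, limma adjusted p = 0.00979). Chaperones fell in 18 of 32 and rose in 4 (9 and 1 without passage 24 NESC). The mitochondrial chaperones HSPE1 and HSPD1 both fell. HSPE1 had 199 FPKM in neurons, against 1411, 1226 and 1070.1 FPKM in NESC (log2 fold change −2.62 ± 0.24, limma adjusted p = 0.00483). HSPD1 had 105 FPKM in neurons, against 503, 427 and 405 FPKM in NESC (log2 fold change −2.07 ± 0.20, limma adjusted p = 0.00504). CCT5 of the tubulin- and actin-folding ring had 128 FPKM in neurons, against 389, 366 and 397 FPKM in NESC (log2 fold change −1.57 ± 0.16, limma adjusted p = 0.00556). DNAJC6, the auxilin that uncoats synaptic vesicles, on a shared locus, rose with 57.5 FPKM in neurons, against 6.99, 2.60 and 5.26 FPKM in NESC (log2 fold change 3.37 ± 0.52, limma adjusted p = 0.0106).

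Transcripts of the extracellular matrix changed in kind. Of 41 matrix and integrin genes 17 fell and 4 rose (6 and 3 without passage 24 NESC). Basement membrane genes were low in neurons. NID1, which joins laminin to collagen IV, had 0.0383 FPKM (1 read) in neurons, against 18.96, 12.7 and 15.4 FPKM in NESC (limma adjusted p = 0.00464). COL18A1 had 5.19 FPKM (6 reads) in neurons, against 61.05, 61.2 and 56.98 FPKM in NESC (log2 fold change −3.29 ± 0.19, limma adjusted p = 0.00443). The fibrillin FBN2 had 1.62 FPKM in neurons, against 12.6, 27.2 and 40.7 FPKM in NESC (log2 fold change −3.26 ± 0.66, limma adjusted p = 0.0203). The proteoglycans NCAN, VCAN and BCAN of brain matrix rose. NCAN, or neurocan, had 237 FPKM in neurons, against 24.8, 23.9 and 29.97 FPKM in NESC (log2 fold change 3.13 ± 0.21, limma adjusted p = 0.00443). VCAN, or versican, had 292 FPKM in neurons, against 84.3, 109 and 93.00 FPKM in NESC (log2 fold change 1.61 ± 0.21, limma adjusted p = 0.00730). BCAN, or brevican, had 27.1 FPKM in neurons and was listed at 0, 0.157 and 0 FPKM in NESC (349 reads in neurons, 2 in all NESC).

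Of 35 apical polarity genes 8 rose and 9 fell, or 22.9% and 25.7%, shares near the 19.5% and 20.7% of all genes (1 and 2 without passage 24 NESC). PROM1, prominin of the apical membrane, had 1.75 FPKM in neurons, against 28.7, 25.05 and 32.6 FPKM in NESC (log2 fold change −3.43 ± 0.27, limma adjusted p = 0.00443). The junction protein F11R had 1.71 FPKM in neurons, against 15.8, 14.1 and 15.3 FPKM in NESC (log2 fold change −2.57 ± 0.28, limma adjusted p = 0.00565). OCLN, occludin of tight junctions, was listed at 0 in neurons against 2.85, 4.48 and 6.38 FPKM in NESC. PRKCZ, an atypical protein kinase C, rose with 31.5 FPKM in neurons, against 4.80, 2.16 and 2.08 FPKM in NESC (log2 fold change 3.08 ± 0.48, limma adjusted p = 0.0109). The cadherin linker CTNNA2, the neural alpha-catenin, on a shared locus, had 53.7 FPKM in neurons, against 4.39, 0.382 and 0.0509 FPKM in NESC (log2 fold change 4.78 ± 0.99, limma adjusted p = 0.0212). Of 19 intermediate filament, annexin and S100 genes 12 fell and 2 rose (5 and 1 without passage 24 NESC). S100A10, the partner of ANXA2, had 0.458 FPKM (1 read) in neurons, against 23.3, 15.2 and 25.5 FPKM in NESC (limma adjusted p = 0.00523). LGALS1, a galectin, had 4.69 FPKM (3 reads) in neurons, against 39.2, 107 and 49.5 FPKM in NESC (limma adjusted p = 0.0137). INA, a neuronal intermediate filament, rose with 774 FPKM in neurons, against 75.5, 64.1 and 92.7 FPKM in NESC (log2 fold change 3.32 ± 0.25, limma adjusted p = 0.00443).

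Of 25 apoptosis and p53 genes 9 fell and 1 rose (4 and 0 without passage 24 NESC). PMAIP1, a death-promoting BCL2 relative, had 0.808 FPKM (9 reads) in neurons, against 52.8, 45.5 and 73.01 FPKM in NESC (log2 fold change −4.98 ± 0.33, limma adjusted p = 0.00443). CDKN1A, an inhibitor of cyclin-dependent kinases that p53 induces, also fell, with 32.1 FPKM in neurons, against 151, 203 and 194 FPKM in NESC (log2 fold change −2.47 ± 0.23, limma adjusted p = 0.00483). Of 12 interferon and MHC class I genes 4 fell and 1 rose (3 and 0 without passage 24 NESC). B2M, the light chain of MHC class I, had 38.9 FPKM in neurons, against 248, 489 and 259 FPKM in NESC (log2 fold change −2.99 ± 0.44, limma adjusted p = 0.00958). The antiviral IFITM3 had 5.18 FPKM (8 reads) in neurons, against 77.2, 72.3 and 45.4 FPKM in NESC (log2 fold change −3.38 ± 0.36, limma adjusted p = 0.00563). Imprinted genes moved singly, 2 up and 2 down of 14 (1 and 2 without passage 24 NESC). The paternally expressed MEST, on a shared locus, had 140.0 FPKM in neurons, against 394, 727 and 414 FPKM in NESC (log2 fold change −1.80 ± 0.40, limma adjusted p = 0.0254). NDN, or necdin, had 163 FPKM in neurons, against 42.9, 77.1 and 77.4 FPKM in NESC (log2 fold change 1.35 ± 0.39, limma adjusted p = 0.0497, edgeR adjusted p = 0.0520).

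Markers of other cell types were read beside these groups. Of 12 astrocyte markers, 9 were tested, 4 rose and 3 fell (3 and 2 without passage 24 NESC). The glutamate transporter SLC1A3, which radial glia also make, had 199.8 FPKM in neurons, against 16.8, 37.9 and 23.6 FPKM in NESC (log2 fold change 2.97 ± 0.46, limma adjusted p = 0.0107). The receptor FGFR3 had 99.3 FPKM in neurons, against 33.98, 47.5 and 34.6 FPKM in NESC (log2 fold change 1.35 ± 0.26, limma adjusted p = 0.0176). The gap junction protein GJA1 fell, with 18.3 FPKM in neurons, against 129, 204 and 152 FPKM in NESC (log2 fold change −3.05 ± 0.29, limma adjusted p = 0.00504). Glutamine synthetase GLUL fell too, with 74.4 FPKM in neurons, against 160.0, 226 and 178 FPKM in NESC (log2 fold change −1.31 ± 0.24, limma adjusted p = 0.0161). The main glutamate transporter of astrocytes, SLC1A2, rose with 12.8 FPKM in neurons, against 1.66, 0.0537 and 0 FPKM in NESC (limma adjusted p = 0.0197, edgeR adjusted p = 0.0558). The defining markers GFAP, AQP4 and S100B stayed under 20 reads in every library. Over the 12 markers the summed FPKM was 443 in neurons and 353, 526 and 396 in NESC, and 6 of the 12 had under 20 reads in neurons. The summed level in neurons lay within the NESC range, although single markers moved both ways. The crest and Schwann list summed to 218 FPKM in neurons and 45.1, 129 and 76.9 in NESC, mainly through EDNRB and TFAP2B. EDNRB, an endothelin receptor that radial glia can share, had 151 FPKM in neurons, against 34.9, 101 and 44.8 FPKM in NESC (limma adjusted p = 0.116). The transcription factor TFAP2B had 58.8 FPKM in neurons, against 0.0980, 19.7 and 29.0 FPKM in NESC (limma adjusted p = 0.307). Neither passed, but neurons lay above every NESC library in both. The list's defining members FOXD3 and SNAI2 were listed at 0 in neurons. For mesenchyme and muscle the sum was 14.96 FPKM in neurons and 74.4, 19.9 and 5.86 in NESC, for epithelium and endoderm 1.08 in neurons and 5.24, 16.4 and 13.8 in NESC, and for the oligodendrocyte lineage 47.1 in neurons and 10.6, 30.99 and 11.9 in NESC. No member of the pluripotent list or of the endothelial and microglial list that is in the table had 20 reads. The part of these markers in the results above was not tested.

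Genes that rose spanned more of the genome than genes that fell. By the deposited coordinates of genes with a locus of their own, the median span was 35810 bp for genes that rose, 21781 bp for genes that fell and 24808 bp for all 10474. The share that rose lay between 16.1% and 18.7% in the 4 shorter of 5 equal groups by span and at 31.03% in the longest, and the share that fell was 13.7% in the longest group and between 20.3% and 23.8% in the others. Of 343 genes of at least 300 kb, 47.8% rose and 8.45% fell. Genes that rose had a median of 618 reads over the 4 libraries and genes that fell had 1423, and the part of read depth was not tested.

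**Figure D4:**
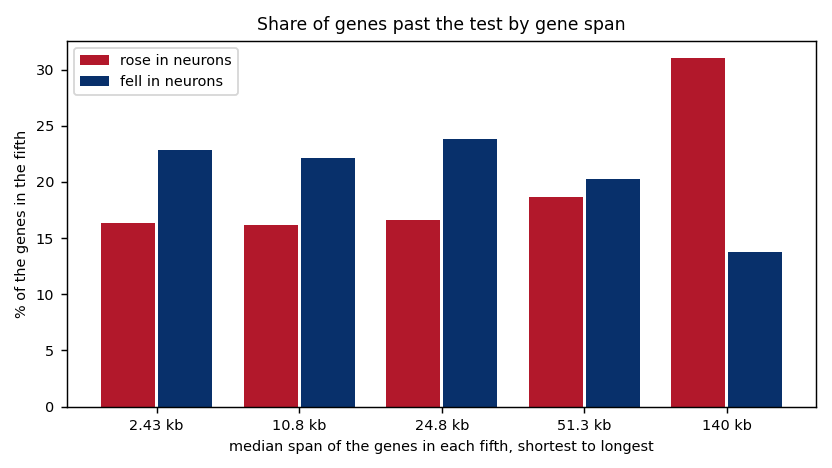
Share of genes in percent that rose (red) or fell (blue) in neurons, in 5 equal groups of 10474 genes ordered by the span of their deposited locus, with the median span of each group on the axis in kb. Only in the longest group does the share that rose, 31.03%, exceed the share that fell, 13.7%.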

How the data were processed

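RNA-seq of 4 rhesus macaque libraries was used: 1 of day 13 neurons and 3 of NESC. The authors deposited FPKM values and normalized counts (a signal scaled by 1 factor per library) in 1 table, per the file headers. Reads were aligned with TopHat2 2.0.9, per the submitters' processing notes. No source used here gives the counting program, genome build, annotation or strand setting. Whole reads were recovered from the normalized counts by dividing by each library's step. Within a tolerance of 0.1 read, 100% of values came out whole in 3 of these libraries, and in passage 36 NESC 1 value did not. Library totals are given with the results, and they cover counting error only.

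Genes with at least 20 reads in 1 of the 4 libraries entered limma 3.58.1 (R 4.3.3), fitted with an intensity trend on log2(FPKM + 1), with 2 residual degrees of freedom between NESC libraries and a Benjamini-Hochberg threshold of 0.05. edgeR 4.0.16, by its quasi-likelihood test with TMM on recovered reads, called 2462 genes higher and 2244 lower in neurons. Scripts were tested on simulated data. Other alternatives were pseudocounts of 0.1 and 5, other read filters and scalings, limma without a trend or with robust moderation, the radial glial library kept in the fit, and each NESC library left out. Symbols were found for 14468 of 16970 genes from the deposited names and the NCBI and RefSeq tables, and sources differed for 163. Deposited loci were shared by 2397 genes, which is stated for genes described in the text but is not marked in the figures.

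Members, lists and pairs were chosen with earlier results of these data known. Named genes were the 12 highest and 12 lowest past the test, from which those described were taken. To these were added up to 6 members of each list with the largest change, up to 3 against its majority, members of pairs, and up to 3 of each marker list with the highest FPKM. SOX2, GJA1, SLC1A2, NUP93, genes listed under the read minimum and all members of the symbol families were named after values were seen. The results of some genes are not reported here.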

Additional observations from a re-analysis of the deposited data

How the results depend on the processing

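Leaving out 1 NESC library at a time gave between 1001 and 2149 genes that rose and between 1107 and 2164 that fell in neurons, with the lowest counts without passage 24 NESC. Of the 4862 called genes, 3879 passed in the same direction without passage 5, 2087 without passage 24 and 3569 without passage 36 NESC. Across pseudocounts, read filters, scalings, limma settings and edgeR, the counts stayed within 1.5 times, from 2058 to 2553 for rose and from 1830 to 2692 for fell. Over all genes the median log2 fold change lay between −0.07 under quantile normalization and 0.02 under median-of-ratios scaling. None of 207 genes named and tested here changed sign under these alternatives. All of the alternatives used the same neuron library, and most of these genes were past the test, so a change of sign was unlikely. Of the 196 of them past the test, 48 lost the call without passage 24 NESC, 11 without passage 5, 16 without passage 36, 58 with no filter on reads, and 6 under edgeR with TMM (HES6, MTO1, NDN, SLC1A2, SOCS3 and SOX2). Against passage 36 NESC alone, which allows no test, 57 of the 207 log2 fold changes moved by more than 1 residual SD of the limma fit. The causes were not tested. No paired analysis was possible because the neurons had 1 library, which shares a passage number with 1 NESC library only. Depth limits genes with few reads, such as LIN28A with 6 and HMGA2 with 7 reads in neurons, and counting error there is large whatever the FPKM value.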

Other observations

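Gene families picked by their symbols, after values were seen and with no test of their own, add further groups in neurons against NESC. Of 17 glutamate receptor subunits 13 rose and none fell (7 rose without passage 24 NESC), although vesicular glutamate transporters did not reach the read minimum. The AMPA receptor subunit GRIA2 had 183 FPKM in neurons, against 7.42, 1.65 and 3.33 FPKM in NESC (log2 fold change 5.32 ± 0.68, limma adjusted p = 0.00728). The NMDA receptor subunit GRIN2D had 41.6 FPKM in neurons, against 0.995, 0.171 and 0 FPKM in NESC (log2 fold change 5.00 ± 0.49, limma adjusted p = 0.00505). Of 44 RAB GTPases, switches of vesicle traffic, 21 rose and 6 fell (6 and 2 without passage 24 NESC). RAB3A of synaptic vesicles had 215 FPKM in neurons, against 6.34, 2.44 and 2.58 FPKM in NESC (log2 fold change 5.59 ± 0.53, limma adjusted p = 0.00502). Of 404 C2H2 zinc finger genes named ZNF, ZFP or ZSCAN 102 rose and 7 fell, with a median log2 fold change of 0.63. Among all genes tested 19.5% rose and 20.7% fell. Without passage 24 NESC 22 of the 404 rose and 1 fell, and of all 12116 genes 1001 rose and 1107 fell. ZNF804A, whose product is known in brain, had 13.3 FPKM in neurons, against 0.411, 0.685 and 0.198 FPKM in NESC (log2 fold change 3.33 ± 0.34, limma adjusted p = 0.00540).

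Families of protein making and turnover lay on the other side. Of 69 mitochondrial ribosomal proteins 43 fell and none rose (24 fell without passage 24 NESC), with a median log2 fold change of −0.83, whereas 8 of 54 respiratory chain subunits fell. The difference between these lists was not tested. MRPL23 had 45.1 FPKM in neurons, against 149.9, 199 and 174 FPKM in NESC (log2 fold change −1.92 ± 0.21, limma adjusted p = 0.00594). Of 46 translation initiation genes 25 fell and 1 rose (7 and 0 without passage 24 NESC). Of 37 proteasome subunits 20 fell and none rose (2 fell without passage 24 NESC), among them PSMA5 with 94.4 FPKM in neurons, against 217, 217 and 223 FPKM in NESC (log2 fold change −1.20 ± 0.15, limma adjusted p = 0.00711).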
